A study of Mus musculus with 41 samples.

Results

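The cerebella examined here came from P14 mice, at an age when granule neurons are still being born, and their ribosome protected fragments (footprints) were counted in 3 Tg(Atoh1-Cre); *Hbs1l* cKO and 3 control libraries, 6 of the 41 samples of the study. All 6 libraries of this age and tissue were taken by their labels, and all genes were considered. Each library was made from the cerebellum of 1 mouse, labelled as C57BL/6J. By the methods, however, the *Hbs1l* alleles were kept on C57BL/6N (B6N) and crossed to B6N mice with the B6J form of n-Tr20, and the Cre transgene came from a B6 line, so the background was mixed, and whether it was alike in both groups is not given in the sources used here. By the study's methods, cKO mice carried Tg(Atoh1-Cre), 1 floxed and 1 deleted *Hbs1l* allele (*Hbs1l* fl/-), and controls carried Tg(Atoh1-Cre) with *Hbs1l* +/+, while cKO mice were n-Tr20 B6J/B6J, that is, homozygous for the C57BL/6J allele of a neuronal arginine tRNA gene, and this genotype of the control mice is not given in the sources used here. The deleted allele was present in every cell of a cKO mouse, whereas Cre under Atoh1 control deletes the floxed allele in the lineage of granule cell precursors from late gestation, so that Purkinje cells, interneurons and glia kept 1 floxed allele. E8.5 embryos (*Hbs1l* -/- and wild-type, 5 pooled embryos per replicate) and MEFs (embryonic fibroblasts) served for comparison, with 3 libraries per group. The MEFs were CAG-Cre ER; *Hbs1l* cKO cells (*Hbs1l* fl/- by the methods), which tamoxifen turned into *Hbs1l* -/- cells, and CAG-Cre ER control cells of the same batch, which were given tamoxifen as well, both with n-Tr20 B6J/B6J.

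HBS1L is a GTPase of the translation termination factor family that works with PELO. The pair recognises ribosomes that have stalled with an empty or mRNA-free A-site, such as those at the end of a truncated mRNA, and with ABCE1 splits them into subunits so that they can be used again. Granule cells, the most numerous neurons of the brain, arise after birth from Atoh1-expressing progenitors that divide in the outer layer of the cerebellum under sonic hedgehog released by Purkinje cells. They then leave the cell cycle, migrate inward past the Purkinje cells and mature in the inner granule layer.

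Between 10919139 and 22591768 footprints were counted per library, and levels are given below as CPM, that is, counts divided by the library total after correction with TMM factors and set to a common scale. Defining markers of the tissue were found in all 6 libraries, with the granule neuron GABA-A receptor subunit *Gabra6* between 343 and 1166 CPM and the Purkinje cell calcium buffer *Calb1* between 1363 and 3401 CPM. Libraries also differed in genes of other tissues and of sex. Serotonin, noradrenaline and acetylcholine neuron genes, which mark brainstem, summed to 85.9 and 190 CPM in cKO 1 and cKO 3 but to 8.11 in cKO 2 and 3.63 to 7.74 in the controls. Midbrain neuron genes summed to 158 to 306 CPM in cKO 1, cKO 3, control 1 and control 2, and to 115 and 84.2 CPM in cKO 2 and control 3. Cerebellar nucleus and unipolar brush cell genes summed to 361, 226 and 349 CPM in cKO 1 to 3. In control 1 to 3 they summed to 399, 300 and 174 CPM, so cKO 2 and control 3 were again lowest in their groups. Whether the midbrain genes stand for midbrain or for cerebellar nuclei was not tested. Skeletal muscle genes reached 421 CPM and granulocyte genes 76.1 CPM in control 1, against at most 45.6 and 24.3 CPM elsewhere. Y-linked genes were high in cKO 1 and control 1 (197 and 231 CPM) and at most 4.47 CPM in the others. Choroid plexus genes ranged from 1781 to 6737 CPM. The first principal component, with 37.7% of the variance, set cKO 1 and cKO 3 (both at -34.9) apart from the other libraries (12.7 to 23.4). Results are therefore also given within a split by midbrain genes, chosen after seeing the data and not recorded in the labels: a first set of cKO 1 and cKO 3 against control 1 and control 2, and a second of cKO 2 against control 3, with 1 library per group and so no replicate check. Within the first set brainstem genes still differed between the groups (85.9 and 190 against 7.74 and 3.63 CPM), and so the split does not make the libraries alike in tissue. How many genes were called without cKO 1 and cKO 3, without cKO 2 and control 1, and with the midbrain or the Y-linked split as a block is given among the alternatives at the end.

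**Figure D1:**
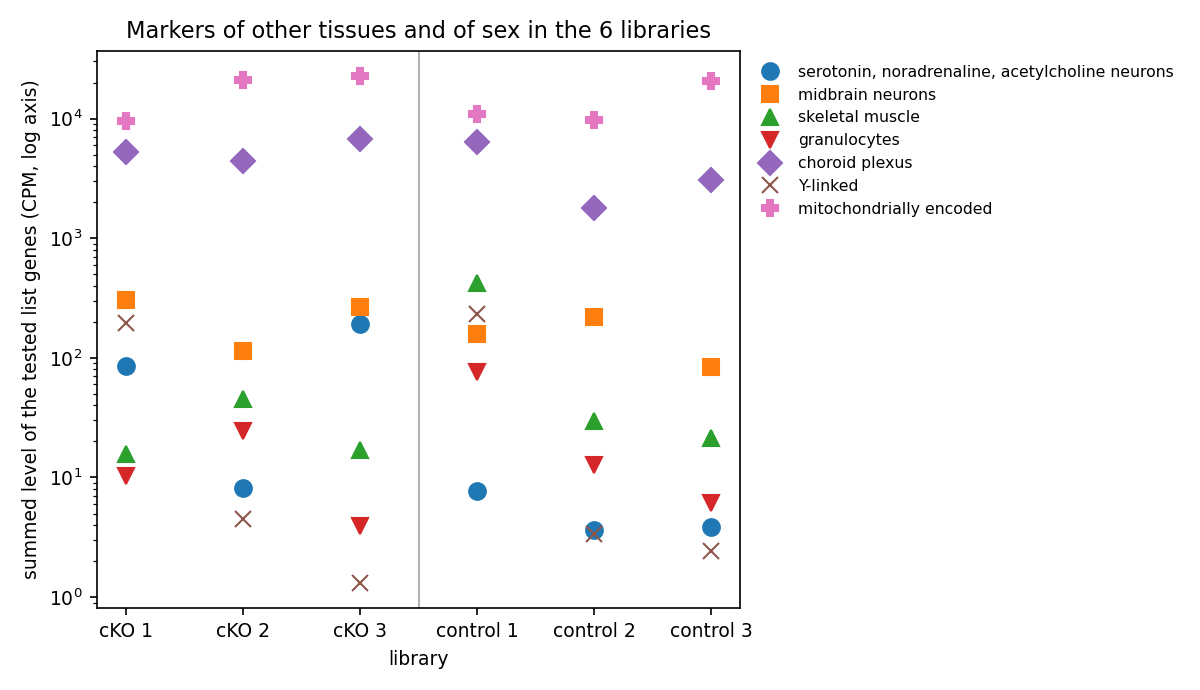
Summed CPM (log axis) of the tested genes of 7 marker lists in each library. Brainstem neuron genes stand out in cKO 1 and cKO 3 (85.9 and 190 CPM), muscle genes in control 1 (421 CPM) and Y-linked genes in cKO 1 and control 1.

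*Hbs1l* (ENSMUSG00000019977.16, chr10:21295979-21368898, plus strand, GRCm38) makes 2 proteins by alternative splicing. The full-length mRNA (Hbs1l-201 of Gencode M21) has 18 exons and 2037 coding bases, and the short form (Hbs1l-203), which encodes a relative of the yeast mRNA turnover factor Ski7, shares exons 1 to 4 (418 coding bases) and ends in an exon of its own (chr10:21309099-21311209, 1418 coding bases). Both alleles used here delete exon 5 (chr10:21336976-21337075), which is coding throughout and belongs to the full-length form alone among the pair. Its 100 bases in capitals and the junctions that tell the 2 forms apart are shown because the deletion acts on this choice of exon. In the junctions the last 30 bases of exon 4 are in lower case and the first 30 bases of the next exon in capitals.

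deleted exon 5: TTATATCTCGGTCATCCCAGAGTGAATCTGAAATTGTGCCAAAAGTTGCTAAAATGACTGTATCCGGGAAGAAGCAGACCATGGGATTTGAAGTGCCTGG
full-length junction: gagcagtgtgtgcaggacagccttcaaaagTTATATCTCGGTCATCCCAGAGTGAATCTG
short-form junction: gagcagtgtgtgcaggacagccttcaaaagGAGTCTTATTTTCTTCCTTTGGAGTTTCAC

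*Hbs1l* footprints were 14.9, 15.7 and 12.8 CPM in cKO 1 to 3 and 37.8, 40.0 and 44.7 CPM in control 1 to 3. No cKO library reached the lowest control, and the level left in cKO cerebella was similar in the 3 mice. The deposited value is 1 count per gene over all coding sequence, so that footprints of the short form, of exons beside the deletion and of cells outside the Atoh1 lineage are in it and cannot be told apart. *Hbs1l* was lower by 1.49 on the log2 scale in cKO 1 and cKO 3 against control 1 and control 2 and by 1.51 in cKO 2 against control 3. Its fall was called by edgeR's quasi-likelihood test, p values here and below being adjusted over all tested genes by Benjamini and Hochberg's method (log2 fold change -1.50, standard error 0.13, adjusted p = 0.0128). The call held in 2 of the 6 fits that left out 1 library, those without cKO 2 and without control 3, and was lost in the other 4 (adjusted p = 0.0538 to 0.129), where the log2 fold change was -1.56 to -1.42.

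Other factors that rescue or report stalled ribosomes were measured in the same libraries. *Pelo*, the partner of HBS1L, was measured at 27.1, 25.8 and 27.8 CPM in cKO and 29.7, 28.9 and 20.8 CPM in control cerebella, and these ranges overlap (log2 fold change 0.03, adjusted p = 0.957), with a sign that depends on the settings. The ATPase *Abce1*, which splits ribosomes after PELO has bound, was at 97.8 to 126 CPM in cKO and 108 to 115 CPM in control libraries. Among the 20 genes of this list, all of them tested, *Hbs1l* was the 1 gene past the adjusted threshold, where 9 of the 14430 tested genes passed (0.0624%), and the median log2 fold change was -0.05 beside 0.00 over all tested genes. Within the sets the median had opposite signs, at -0.13 in the first, with 4 of 20 genes higher, and 0.20 in the second, with 15 of 20 higher. At an unadjusted p under 0.05, 2 of the 20 were higher, a condition met by 7.14% of all tested genes. These were *Rack1*, a ribosomal scaffold needed for quality control at collided ribosomes (412, 339 and 402 against 302, 320 and 294 CPM, log2 fold change 0.33, adjusted p = 0.318), and the nuclease relative *N4bp2* (22.4, 15.9 and 17.3 against 14.6, 13.7 and 12.8 CPM, 0.44, adjusted p = 0.300). Without 1 library *N4bp2* was at 0.28 to 0.54. *Hbs1l* was the only member lower at that p, which 6.28% of tested genes met, but 2 members were lower without cKO 2 and 5 without control 3. The share over all tested genes moves with the library left out as well, and list counts without 1 library, here and below, are to be read beside it. It was 12% higher and 12.3% lower without control 3, 9.37% and 7.58% without cKO 2, and 4.53% to 5.6% higher and 3.2% to 3.85% lower in the other 4 fits. *Gtpbp1*, a second GTPase with a role in ribosome stalling, was at 78.1 to 97.3 CPM in cKO and 88.9 to 91.5 CPM in control libraries, and the ubiquitin ligase *Ltn1*, which marks the nascent chains of split ribosomes, at 75.6 to 104 and 77.3 to 121 CPM.

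Besides *Hbs1l*, 8 genes passed the adjusted threshold, and all of them rose. *Sox11* (chr12:27334264-27342574), a transcription factor of newborn neurons, was at 90.5, 91.0 and 98.3 CPM in cKO and 30.8, 38.9 and 38.3 CPM in control cerebella. *Insm1* (chr2:146221921-146225020), a zinc-finger factor of dividing and newborn neural cells, was at 129, 106 and 125 against 38.6, 49.1 and 47.0 CPM. For both genes the 3 cKO libraries lay close together and more than 2-fold above the highest control, and the log2 fold changes were 1.37 (standard error 0.13, adjusted p = 0.0128) and 1.42 (0.14, adjusted p = 0.0154).

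*Rcor2* (chr19:7267325-7275225), a CoREST corepressor of neural progenitors, was at 70.6, 58.6 and 65.0 CPM in cKO and 31.5, 35.5 and 34.6 CPM in control libraries. *Mex3a* (chr3:88532395-88541396), an RNA-binding protein of progenitor cells, was at 28.0, 32.0 and 29.1 against 11.5, 14.5 and 14.3 CPM. These were the 2 smallest increases of the 8, with log2 fold changes of 0.93 (standard error 0.12) and 1.14 (0.14), both at an adjusted p = 0.0453. Secreted *Sfrp1* (chr8:23411502-23449632), which binds Wnt proteins, was at 96.8, 83.5 and 82.5 CPM in cKO and 30.8, 29.0 and 35 CPM in control cerebella (log2 fold change 1.47, adjusted p = 0.0128). *Hsd11b2* (chr8:105518755-105523988), the enzyme that inactivates glucocorticoids, was at 11.1, 11.8 and 11.0 against 3.99, 3.21 and 4.13 CPM (1.58, adjusted p = 0.0261).

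The nicotinic receptor subunit *Chrna3* (chr9:55010111-55026562) was at 40.4, 35.4 and 40.6 CPM in cKO and 15.4, 15.3 and 17.8 CPM in control cerebella (log2 fold change 1.26, adjusted p = 0.0154). The growth factor receptor *Fgfr4* (chr13:55152640-55168759) had the lowest level and the highest fold of the 8, with 3.88, 5.20 and 5.04 against 0.915, 0.849 and 0.954 CPM (2.36, standard error 0.25, adjusted p = 0.0232). None of these genes overlapped between groups, as was so for 9.38% of all tested genes with cKO higher and 8.91% with cKO lower. With no overlap between groups, each of the 8 had to be higher within both sets, so the sign there is no further check. The differences were 1.02 to 2.2 in cKO 1 and cKO 3 and 0.76 to 2.32 in cKO 2 on the log2 scale. *Rcor2* had the smallest and *Fgfr4* the largest difference in each set. Adjusted p values of all 8 genes stayed at most 0.05 in 2 of the 6 fits that left out 1 library, those without cKO 2 and without control 3.

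**Figure D2:**
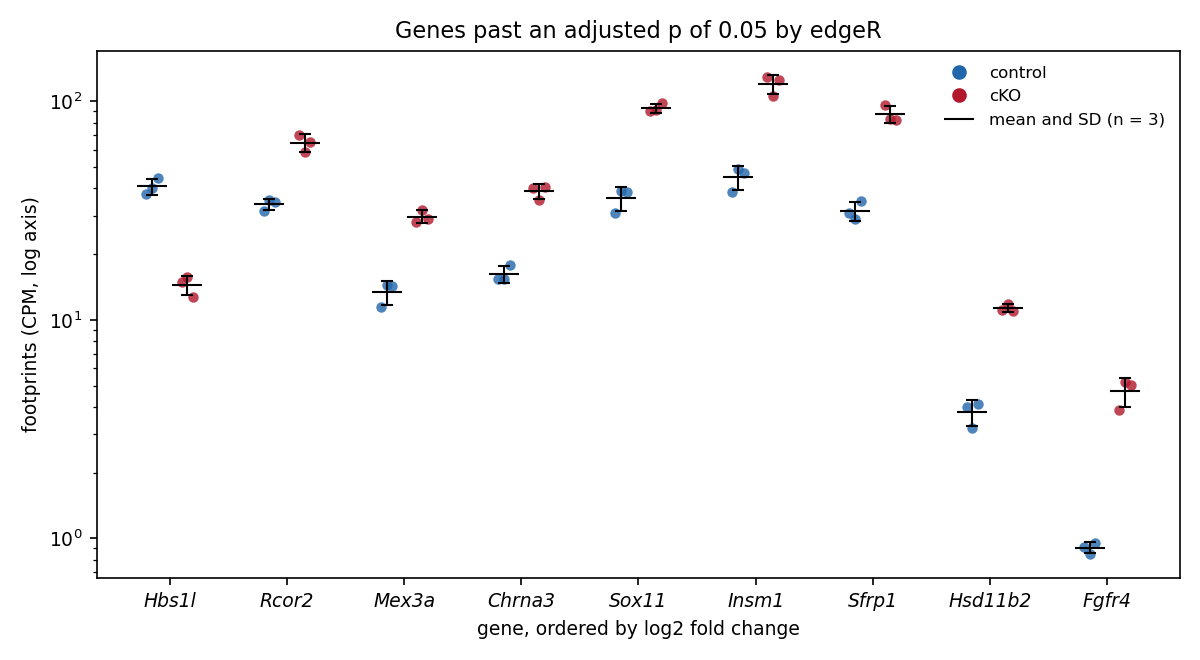
CPM (log axis) of the 9 genes past the adjusted threshold, with a point per library, the mean and the SD (n = 3). Control and cKO points do not overlap for any of them, and *Hbs1l* is the 1 gene in which cKO libraries are lower.

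Genes of the cell division machinery were higher as a group, although no single member passed the adjusted threshold. All 31 genes of the cell cycle list were tested and all 31 were higher, with a median log2 fold change of 1.12. At an unadjusted p under 0.05, where 7.14% of all tested genes were higher and 6.28% lower, 27 were higher and 0 lower (26 to 28 higher without 1 library), and in 26 the groups did not overlap with cKO higher, beside 9.38% of all tested genes. By DESeq2, 25 of the 31 were higher at an adjusted p of at most 0.05, where 1.97% of the 14312 genes with an adjusted p were called higher and 1.4% lower.

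The mitotic kinase *Cdk1* was at 43.8, 22.1 and 37.6 CPM in cKO and 12.6, 12.7 and 13.6 CPM in control cerebella (log2 fold change 1.42, adjusted p = 0.0883). Thymidine kinase *Tk1* was at 4.81, 3.46 and 4.19 against 1.33, 1.27 and 1.27 CPM (1.69, adjusted p = 0.0705). *Rrm2*, the ribonucleotide reductase subunit that makes nucleotides for replication, was at 34.1, 22.8 and 26.9 against 12.9, 13.6 and 13.8 CPM (1.06, adjusted p = 0.0823). In each of these the lowest cKO library, cKO 2, was still well above the highest control. The helicase subunit *Mcm3* (38.5, 24 and 24.8 against 13.1, 14.2 and 11.5 CPM, adjusted p = 0.102) and topoisomerase *Top2a* (119, 50.3 and 60.7 against 33.4, 32.2 and 20.6 CPM, adjusted p = 0.129) were higher in the same way. *Pcna*, the sliding clamp of the replication fork, was among the exceptions: its 42.7, 26.4 and 42.3 CPM in cKO overlapped the 28.1, 28.9 and 32.7 CPM of the controls (0.32, adjusted p = 0.510), as did values of *Gmnn*, *Hmgb2*, *Mcm4* and *E2f1*.

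As a whole, cell cycle genes were higher by a median of 1.49, 0.69 and 0.99 on the log2 scale in cKO 1, 2 and 3 than the mean of the controls, which themselves lay between -0.11 and 0.07. Within the sets the median was 1.18 for cKO 1 and cKO 3, with 31 of 31 genes higher, and 0.78 for cKO 2 against control 3, with 30 of 31 higher. In whole tissue, more cells of a kind and more footprints per cell cannot be told apart, and since no RNA of these cerebella was analysed here, neither can RNA amount and translation.

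Histone genes were left out of the tests above, as in the study. Many of them are near-identical copies, among which short footprints can be misassigned, so values of single histone genes are uncertain. Their share of all footprints was 1.06%, 0.90% and 1.11% in cKO 1 to 3 and 0.49%, 0.56% and 0.71% in control 1 to 3, which do not overlap (exact permutation test, two-sided p = 0.1, the smallest that 3 against 3 libraries allow). With the 74 histone genes that passed the filter added to the fit, 67 of 14504 genes were called at the same threshold (0.462%), and 30 of these were histone genes, which all rose. The median log2 fold change of the 74 was 1.07, and 54 did not overlap between groups with cKO higher, against 0 with cKO lower, beside 9.38% and 8.91% of all genes tested without histones.

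The replication-dependent gene *H2ac8*, made in S phase like most of its cluster, was at 60.6, 43.1 and 50.9 CPM in cKO and 16.0, 15.6 and 17.4 CPM in control cerebella (log2 fold change 1.66, adjusted p = 0.00992). The linker histone *H1f5* rose by 1.48 (460, 250 and 372 against 116, 125 and 146 CPM, adjusted p = 0.0382). *H2ax*, the variant that is phosphorylated at DNA breaks, rose by 0.90 (137, 106 and 150 against 72.0, 68.6 and 70.5 CPM, adjusted p = 0.0482). Histone genes that did not pass ranged from -1.63 for *H2ac1* to 2.18 for *Hist1h2bq* (adjusted p = 0.444 and 0.0972), with *H3f3b*, a replacement form of histone H3, at 0.21 (adjusted p = 0.726).

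Promoters of the cell cycle list were read as a description, from 250 bases before to 50 bases after the start (RefSeq, GRCm38.p6), for the 25 of its 31 genes in the table. A CHR element (TTTGAA or TTCGAA), the site at which many G2 and M phase genes are held silent in resting cells, was present in 13 of 25 (52.0%), against 16.1% of the 11335 tested genes with a promoter. A CCAAT box, the site of NF-Y, was present in 19 (76.0%), against 42.6%, and an E2F site (TTTGGCGC, TTTCGCGC, TTTGCCGC or TTTCCCGC) in 7 (28.0%), against 4.46%. The E-box that Atoh1 and Neurod1 bind (CAGATG) was present in 1 (4.0%), against 14.1%. All motifs were searched on both strands, in windows of equal length, and none of the motif words holds another. A gene with several promoters counted once, as holding a motif if any of its windows did. The 250 bases upstream of *Cdk1* and *Top2a* are shown because they hold several matches each. Those of *Sox11* are shown because it held the only CHR match among the called genes, and it is not typical of them. *Chrna3*, *Fgfr4* and *Rcor2*, which rose as well, held no CHR, CCAAT or E2F match. Among the 6 of the 9 called genes with a promoter in the table, CHR was present in 1 (16.7%), CCAAT in 2 (33.3%), E2F in 1 (16.7%) and the E-box in 1 (16.7%), beside 16.1%, 42.6%, 4.46% and 14.1% of all tested genes with a promoter. The E-box was that of *Hbs1l*, the gene that fell, while *Sox11*, *Chrna3*, *Fgfr4*, *Mex3a* and *Rcor2* held none. Capitals mark CHR, CCAAT and E2F letters on either strand. All 3 lie on the minus strand, at chr10:69352913-69353162, chr11:99024190-99024439 and chr12:27342719-27342968, and a match of letters does not show that a factor binds.

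Cdk1 promoter: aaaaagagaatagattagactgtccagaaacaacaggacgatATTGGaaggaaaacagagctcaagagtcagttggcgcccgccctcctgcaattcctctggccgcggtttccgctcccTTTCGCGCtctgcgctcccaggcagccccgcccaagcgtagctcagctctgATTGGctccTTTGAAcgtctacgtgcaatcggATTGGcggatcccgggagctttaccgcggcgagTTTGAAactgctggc
Top2a promoter: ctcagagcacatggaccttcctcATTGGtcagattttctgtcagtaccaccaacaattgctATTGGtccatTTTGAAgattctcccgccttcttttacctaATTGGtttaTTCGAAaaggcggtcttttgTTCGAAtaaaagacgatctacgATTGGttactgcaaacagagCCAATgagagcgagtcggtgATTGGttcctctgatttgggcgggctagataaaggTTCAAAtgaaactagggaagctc
Sox11 promoter: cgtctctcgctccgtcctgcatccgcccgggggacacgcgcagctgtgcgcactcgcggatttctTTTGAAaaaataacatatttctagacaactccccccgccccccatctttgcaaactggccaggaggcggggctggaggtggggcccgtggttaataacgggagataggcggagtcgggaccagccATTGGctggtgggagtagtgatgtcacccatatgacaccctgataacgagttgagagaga

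Among 15 genes of granule cell progenitors and the hedgehog pathway, 7 were higher and 1 lower at an unadjusted p under 0.05, beside 7.14% and 6.28% of all tested genes, with a median log2 fold change of 0.57. *Atoh1*, the factor that defines the lineage and drives the Cre transgene's promoter, was at 9.01, 4.56 and 5.64 CPM in cKO and 2.00, 2.17 and 2.59 CPM in control cerebella (1.51, adjusted p = 0.105). The progenitor factor *Barhl1* was at 79.1, 76.7 and 79.4 against 31.6, 38.7 and 45.2 CPM (1.02, adjusted p = 0.0705). Both ranges were separate, and *Barhl1* varied little among the cKO mice. The mitogen effectors *Ccnd2* (1.21, adjusted p = 0.102) and *Mycn* (1.00, adjusted p = 0.0931), and the hedgehog transcription factor *Gli2* (0.84, adjusted p = 0.147), were higher too. Other hedgehog genes did not share this: the receptor *Ptch1*, itself a target of the pathway, was at 61.7, 83.3 and 61.7 against 58.4, 51.6 and 79.1 CPM (0.12, adjusted p = 0.818), and the hedgehog-binding protein *Hhip* at 20.8, 23.0 and 18.1 against 31.6, 28.0 and 22.2 CPM (-0.40, adjusted p = 0.340). The list's median was 0.96 within the first set and 0.16 for cKO 2 against control 3.

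Newly formed, migrating granule neurons were represented by 13 genes, of which 8 were higher and 0 lower at an unadjusted p under 0.05, beside 7.14% and 6.28% of all tested genes, with a median of 0.44. Besides *Sox11*, these included its relative *Sox4* (91.0, 84.1 and 98.7 against 51.3, 58.7 and 53.2 CPM, log2 fold change 0.75, adjusted p = 0.0766). The microtubule protein *Dcx*, which migrating neurons need, was at 303, 203 and 255 against 126, 134 and 161 CPM (0.85, adjusted p = 0.107). The transient factor *Nhlh1* was at 15.8, 14.4 and 15.3 against 5.16, 5.76 and 10.1 CPM (1.10, adjusted p = 0.126), and the tubulin *Tubb2b* at 333, 255 and 299 against 192, 225 and 194 CPM (0.54, adjusted p = 0.164). In all of these, every cKO library exceeded every control. Within the sets the median of the list was 0.60 and 0.33.

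Genes of mature granule neurons had the opposite sign. Of 14, 13 had a lower mean in cKO, 3 of them at an unadjusted p under 0.05 (2 to 9 when 1 library was left out, 9 without cKO 2), where 6.28% of all tested genes were lower, and the median log2 fold change was -0.40. The calcium sensor *Vsnl1* was at 528, 505 and 576 CPM in cKO and 731, 793 and 922 CPM in control cerebella (-0.60, adjusted p = 0.132). The synapse organiser *Cbln3*, made by granule neurons, was at 206, 378 and 204 against 425, 435 and 698 CPM (-0.99, adjusted p = 0.202), and *Gabra6* at 343, 516 and 359 against 575, 576 and 1166 CPM (-0.93, adjusted p = 0.240). Control 3 was the highest library for *Cbln3* and *Gabra6*, and cKO 2 the highest cKO. Without 1 library the log2 fold change was -1.34 to -0.72 for *Cbln3* and -1.14 to -0.50 for *Gabra6*. The list's median was -0.44 for cKO 1 and cKO 3 and -0.32 for cKO 2 within their sets, whereas cKO 2 alone against the mean of the controls was at -0.01.

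Receptor subunits had log2 fold changes of both signs. *Gabra2*, a GABA-A receptor subunit of immature neurons and interneurons, was at 104, 100.4 and 100.5 CPM in cKO and 64.9, 66.2 and 63.5 CPM in control cerebella (0.65, adjusted p = 0.0766). The GABA-A receptor subunit *Gabrb2* was at 338, 362 and 319 against 441, 425 and 441 CPM, which do not overlap (-0.36, adjusted p = 0.250). The AMPA receptor subunit *Gria2* was at 350, 345 and 272 against 495, 450 and 365 CPM (-0.44, adjusted p = 0.303). Over the 30 GABA-A and ionotropic glutamate receptor genes, 2 were higher and 8 lower at an unadjusted p under 0.05, beside 7.14% and 6.28% of all tested genes, so that the number higher was near the share of all genes. The median was -0.11, and the 8 became 1 without cKO 3, 2 without control 1, 3 without cKO 1 or control 2, 9 without control 3 and 11 without cKO 2. Of 19 synapse genes 3 were lower and 0 higher at that p (1 to 6 lower without 1 library, 1 without cKO 1, cKO 3, control 1 or control 2 and 6 without control 3), where 6.28% of all tested genes were lower, with a median of -0.22, led by the vesicle fusion protein *Snap25* (1084, 1645 and 1227 against 2028, 2306 and 2588 CPM, -0.81, adjusted p = 0.135). Within the first and the second set the medians were -0.12 and -0.13 for receptor genes and -0.19 and -0.12 for synapse genes.

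**Figure D3:**
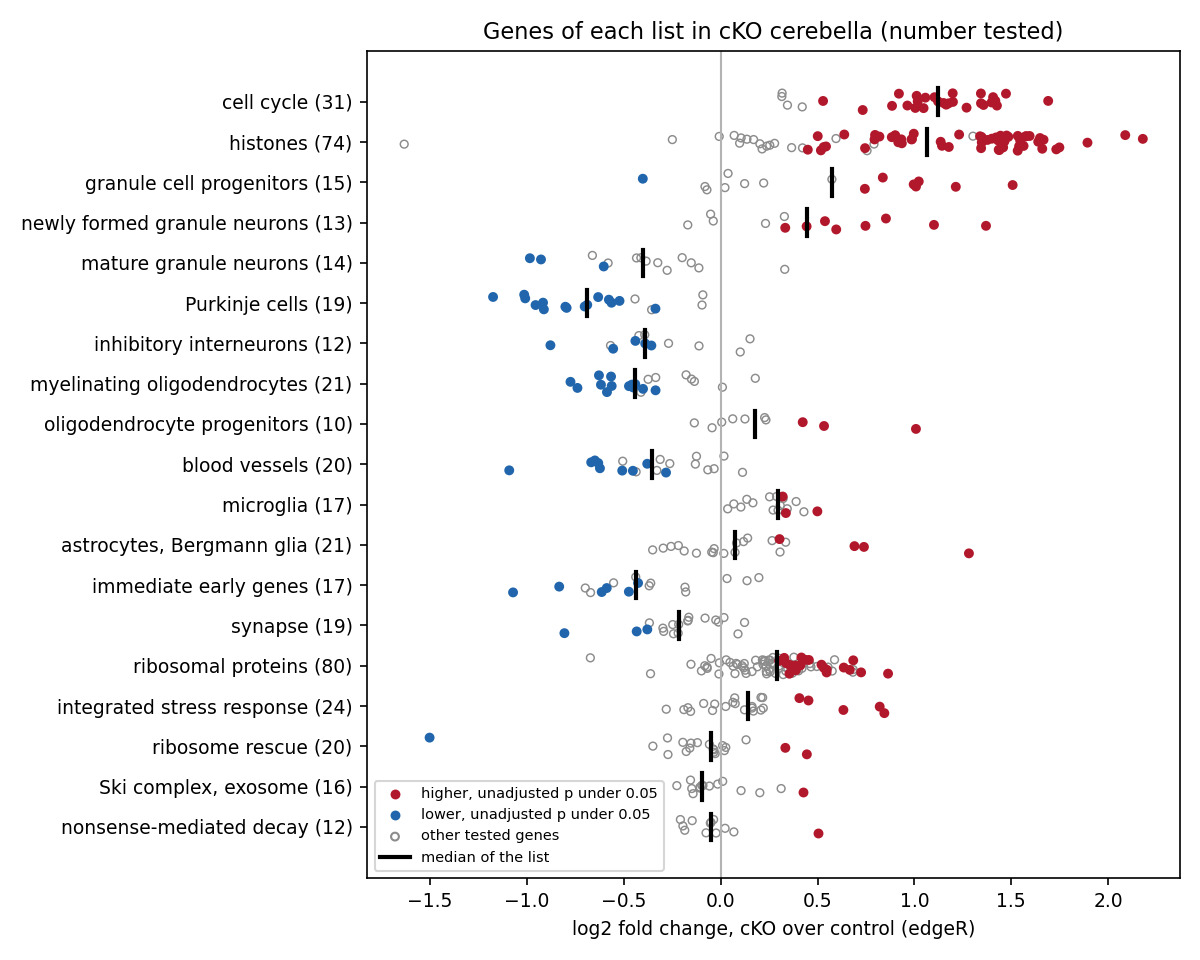
Log2 fold change (cKO over control) of every tested gene of 19 lists, histones from the fit that kept them. Cell cycle and histone genes centre at 1.12 and 1.07, and Purkinje cell, myelin and mature granule neuron genes at -0.69, -0.44 and -0.40.

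Purkinje cell genes had lower values in cKO libraries and in 1 control. All 19 genes of the list had a negative log2 fold change, 15 of them at an unadjusted p under 0.05 against 6.28% of all tested genes, and the median was -0.69. The 15 became 7 without cKO 3, 8 without control 2, 9 without cKO 1 or control 1, 15 without cKO 2 and 17 without control 3. Their summed level was 10138, 12273 and 9298 CPM in cKO 1 to 3 and 23603, 21628 and 12410 CPM in control 1 to 3, so that control 3 lay next to the cKO libraries. *Aldoc*, the glycolytic enzyme of Purkinje stripes and astrocytes, was at 1824, 2461 and 1984 against 5102, 4878 and 2640 CPM (-1.01, adjusted p = 0.155). *Car8*, a regulator of the calcium channel encoded by *Itpr1*, was at 898, 1322 and 1070 against 2176, 2239 and 1779 CPM (-0.91, adjusted p = 0.106). *Itpr1* itself was at 1614, 1999 and 910 against 5046, 3812 and 1354 CPM, and these groups overlap (-1.18, adjusted p = 0.318). Within the sets the median was -1.10 for cKO 1 and cKO 3, with 0 of 19 genes higher, and -0.03 for cKO 2 against control 3, with 9 of 19 higher.

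Inhibitory interneuron genes had a median of -0.39 over 12 genes, -0.59 within the first set and 0.04 within the second, and 5 were lower at an unadjusted p under 0.05, where 6.28% of all tested genes were lower (0 to 9 without 1 library, 9 without control 3 and at most 3 in the other fits). *Gad1*, the enzyme that makes GABA, was at 430, 374 and 310 CPM in cKO and 906, 808 and 336 CPM in control cerebella (-0.88, adjusted p = 0.304). Blood vessel genes had a median of -0.35 over 20 genes, with -0.54 and -0.06 within the sets, and 9 were lower at that p, met by the same 6.28% of all tested genes (2 without control 2, 4 without cKO 1, cKO 2 or control 1, 15 without control 3). The endothelial transporter *Slco1a4* was at 33.6, 36.7 and 40.4 against 67.1, 61.4 and 45.4 CPM (-0.65, adjusted p = 0.147), and the receptor *Flt1* at 53.8, 45.9 and 52.9 against 98.6, 92.5 and 52.1 CPM (-0.67, adjusted p = 0.255). Control 3 was the lowest control for all 3 genes.

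Myelin genes had separate groups with cKO lower in 11 of 21 cases, beside 8.91% of all tested genes. Of the 21, 13 were lower and 0 higher at an unadjusted p under 0.05, beside 6.28% and 7.14% of all tested genes, and the median was -0.44, with -0.59 and -0.20 within the sets. The 13 became 4 without control 2, 5 without cKO 1, 8 without control 1, 12 without cKO 2 or cKO 3 and 16 without control 3. *Opalin*, a membrane protein of mature oligodendrocytes, was at 20.8, 25.0 and 26.8 CPM in cKO and 34.8, 36.4 and 37.7 CPM in control cerebella (-0.59, adjusted p = 0.123). The myelin protein *Mal* was lower too (102, 196 and 168 against 263, 280 and 256 CPM, -0.78, adjusted p = 0.189), while *Mbp* was at 1798, 2083 and 2603 against 1499, 1839 and 2390 CPM (0.18, adjusted p = 0.758). *Mbp* turned sign between the sets (0.38 and -0.20) and was at 0.024 to 0.37 without 1 library. Oligodendrocyte progenitor genes had a median of 0.18 over 10 genes, 3 of them higher at an unadjusted p under 0.05, where 7.14% of all tested genes were higher. These were *C1ql1* (19.3, 17.7 and 25.3 against 9.07, 9.44 and 12.4 CPM, 1.01, adjusted p = 0.105), *Gpr17* (0.53, adjusted p = 0.205), which marks cells about to form myelin, and *Pdgfra* (0.42, adjusted p = 0.369). The median of this list was 0.21 and 0.18 within the sets and 0.069 to 0.24 without 1 library.

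Astrocyte and Bergmann glia genes had a median of 0.07 over 21 genes, of which 12 had positive and 9 negative log2 fold changes, with 4 higher and 0 lower at an unadjusted p under 0.05, beside 7.14% and 6.28% of all tested genes (4 without cKO 2, 9 without control 3 and 2 without any other library). *Slc6a11*, an astrocyte GABA transporter that is abundant in brainstem, was at 354 and 419 CPM in cKO 1 and cKO 3 but at 141 CPM in cKO 2, within reach of the controls (113, 144 and 119 CPM). *Gfap* was at 581, 453 and 586 against 260, 235 and 475 CPM (0.74, adjusted p = 0.283), and *Fabp7*, of radial and Bergmann glia, at 1168, 901 and 1152 against 548, 600 and 848 CPM (0.69, adjusted p = 0.194). For both, control 3 was close to the cKO libraries. The glutamate transporter *Slc1a3*, of astrocytes and Bergmann glia, was at 1616, 2213 and 1380 against 2091, 2099 and 2208 CPM, and these groups overlap (-0.30, adjusted p = 0.541). The median of the list was 0.13 within the first set, with 16 of 21 genes higher, and -0.16 within the second, with 6 of 21 higher. Microglia genes had a median of 0.30 (0.15 to 0.41 without 1 library), and medians of 0.48 and -0.11 within the sets. All 17 tested of 18 were higher, 3 of them at an unadjusted p under 0.05, beside 7.14% of all tested genes with all 6 libraries. The 3 became 0 without control 1, 1 without cKO 3 or control 2, 2 without cKO 1 and 4 without cKO 2. Without control 3 they became 9, where 12% of all tested genes were higher. In this list, the growth factor receptor *Csf1r* was at 93.1, 91.1 and 89.5 against 69.0, 74.5 and 75.6 CPM (0.32, adjusted p = 0.236).

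**Figure D4:**
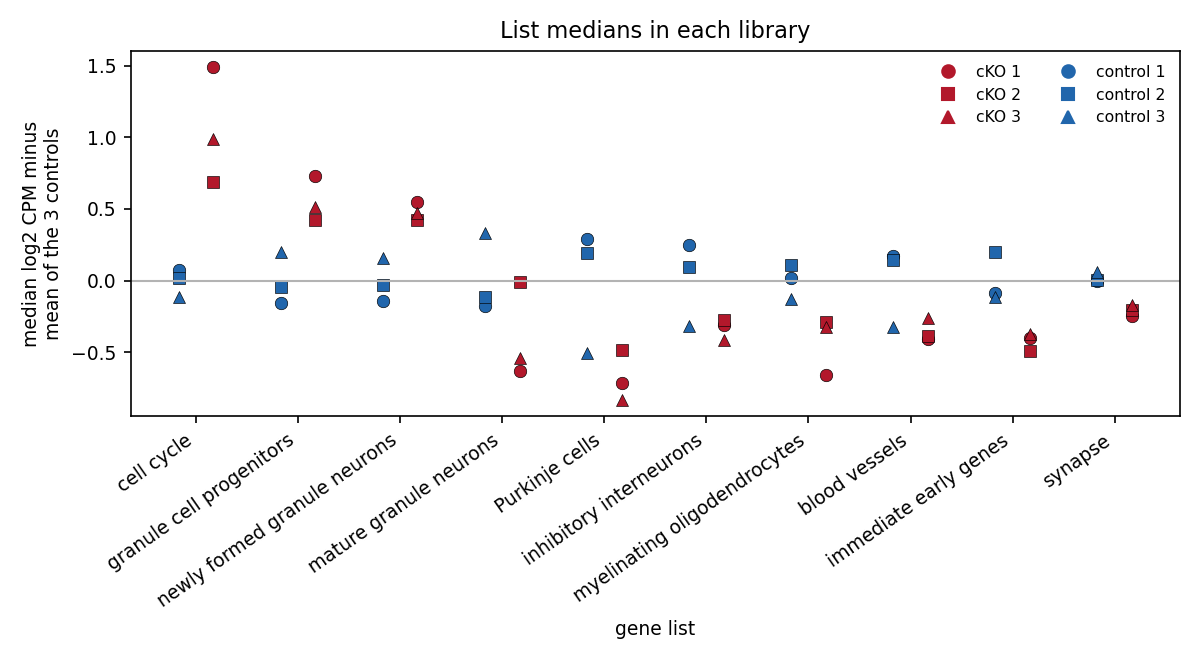
Median over the genes of a list of log2 CPM minus the mean of the 3 controls, in each library. In the cell cycle list the cKO libraries lie at 0.69 to 1.49 and the controls at -0.11 to 0.07, while for Purkinje cells control 3 (-0.51) lies beside cKO 2 (-0.48).

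Stalled ribosomes are known to switch on stress responses and mRNA decay. Of 23 genes of the integrated stress response, with 24 entries tested since the symbol *Ddit3* had 2 identifiers, 5 were higher and 0 lower at an unadjusted p under 0.05 (3 to 5 without 1 library, 3 without cKO 1), where 7.14% of all tested genes were higher, and the median was 0.14 beside 0.00 over all tested genes. One of the *Ddit3* entries (ENSMUSG00000025408.15), for the stress-induced transcription factor CHOP, was at 3.74, 4.56 and 4.83 CPM in cKO and 2.16, 2.60 and 2.5 CPM in control cerebella, which do not overlap (0.84, adjusted p = 0.162), while the other was at 0.16 (adjusted p = 0.856). The cystine transporter *Slc7a11* was at 60.9, 46.4 and 57.7 CPM in cKO and 32.1, 33.2 and 41.2 CPM in control cerebella (0.63, adjusted p = 0.132). *Ppp1r15a*, which reverses the phosphorylation of eIF2 alpha, was at 3.51, 5.65 and 2.95 against 2.41, 2.03 and 2.32 CPM (0.82, 0.52 to 1.01 without 1 library, adjusted p = 0.282). The serine and glycine enzymes *Phgdh* (0.45, adjusted p = 0.278) and *Shmt2* (0.41, adjusted p = 0.267) were higher by less. Heat shock and unfolded protein genes had a median of -0.03 over 12. Of these, 0 were higher and 0 lower at an unadjusted p under 0.05, beside 7.14% and 6.28% of all tested genes. By DESeq2 0 passed, beside 1.97% called higher and 1.4% lower, and a list this short can hold 0 at those shares. Within the sets the medians were 0.13 and 0.12 for stress response genes and -0.0025 and -0.063 for heat shock and unfolded protein genes.

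Nonsense-mediated decay factors had a median of -0.05 over 12 genes, with 1 higher at an unadjusted p under 0.05, where 7.14% of all tested genes were higher, the helicase *Dhx34* (12.5, 13.8 and 10.8 against 9.07, 7.74 and 9.40 CPM, 0.50, adjusted p = 0.253). The Ski complex and exosome had a median of -0.09 over 16 genes, with 1 higher at that p, the exosome subunit *Exosc8* (0.42, adjusted p = 0.276). Both counts were near the share of all genes. Of 13 p53 target genes 2 were higher at an unadjusted p under 0.05, beside the same 7.14%, and the median was -0.01. All 3 lists turned sign between the sets, with medians of -0.16 and 0.12 for decay factors, -0.18 and 0.18 for the Ski complex and exosome and 0.12 and -0.18 for p53 target genes in the first and the second set. *Eda2r*, a death receptor that p53 induces, was at 3.24, 2.19 and 2.39 against 0.416, 0.613 and 1.04 CPM (1.86, adjusted p = 0.107), whereas the cell cycle inhibitor *Cdkn1a* was at 53.9, 73.3 and 61.3 against 69.2, 76.9 and 84.4 CPM (-0.29, adjusted p = 0.419).

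Immediate early genes are switched on by neuronal activity. Of 17, 6 were lower (4 to 7 without 1 library) and 0 higher at an unadjusted p under 0.05, all 6 without overlap, beside 6.28% of all tested genes lower at that p and 8.91% without overlap, and the median was -0.44, with -0.54 and -0.21 within the sets. *Fos* was at 45.7, 33.5 and 28.2 CPM in cKO and 50.9, 83 and 57.4 CPM in control cerebella (-0.83, adjusted p = 0.174). *Junb* was at 11.9, 14 and 13.1 against 18.6, 22.7 and 18.3 CPM (-0.61, adjusted p = 0.145), and the phosphatase *Dusp1* at 45.5, 46.9 and 41.4 against 54.6, 76.8 and 69.4 CPM (-0.59, adjusted p = 0.146). Of 80 ribosomal protein genes tested (86 in the table), 20 were higher and 0 lower at an unadjusted p under 0.05, beside 7.14% and 6.28% of all tested genes, with a median of 0.29. The 20 became 8 without control 1, 12 without cKO 3, 18 without cKO 1 or cKO 2, 20 without control 2 and 33 without control 3, and within the sets the median was 0.34 and 0.18. *Rpl14* was at 65.8, 63.2 and 69.4 against 40.3, 48.8 and 48.0 CPM (0.53, adjusted p = 0.120). Short footprints on ribosomal protein genes can be misassigned to their many pseudogenes, so single genes of this family are uncertain.

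Ranking of the largest differences used genes with an unadjusted p under 0.05, separate groups and a mean of at least 5 CPM, a condition met by 636 genes with cKO higher and 633 with cKO lower. Among the 12 largest increases, *Slc6a4* (21.7, 0.73 and 62.7 against 0.58, 0.33 and 0.68 CPM) and *Slc18a2* (13.8, 1.09 and 31.8 against 0.67, 0.47 and 0.27 CPM), both transporters of serotonin neurons, came from the 2 cKO libraries with brainstem genes. *Myod1*, best known as a switch of the muscle lineage, was at 8.55, 6.20 and 11.2 CPM in cKO and 1.66, 2.08 and 2.32 CPM in control cerebella (2.09, adjusted p = 0.0534). The 11 genes of the skeletal muscle list all had negative log2 fold changes, with a median of -2.72 set by control 1. Of the other 9, *Hsd11b2* is described above, and *Esco2*, *Kif18b*, *Ncapg*, *Espl1*, *Ckap2l*, *Dtl*, *Ect2* and *Chaf1b* act in replication, chromosome condensation, sister chromatid cohesion, spindle assembly or cytokinesis. The motor protein *Kif18b* was at 15.2, 8.84 and 10.4 against 3.91, 3.73 and 2.82 CPM (1.73, adjusted p = 0.0705). For the cohesin acetyltransferase *Esco2*, cKO 1 stood highest (13.7, 3.74 and 6.97 against 2.16, 1.94 and 2.59 CPM, 1.88, adjusted p = 0.129).

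Among the 12 largest decreases *Crtam*, an adhesion molecule, came first, at 7.86, 15.3 and 11.8 CPM in cKO and 26.5, 23.7 and 48.1 CPM in control cerebella (-1.51, adjusted p = 0.115), followed by *Hbs1l*. Both carbonic anhydrases *Car9* (7.67, 10.4 and 9.27 against 21.6, 19.9 and 30.9 CPM, -1.41, adjusted p = 0.0705) and *Car4* (56.7, 101 and 98.3 against 150, 147 and 280 CPM, -1.17, adjusted p = 0.159) were on the list. *Gabarapl2*, of the autophagy machinery, was at 13.8, 18.5 and 16.3 against 36.8, 53 and 26.7 CPM (-1.27, adjusted p = 0.105). The adaptor *Stap2* (3.70, 3.55 and 2.99 against 7.24, 7.12 and 8.54 CPM, -1.16, adjusted p = 0.0883) and *Ccdc63* (6.89, 7.29 and 5.94 against 13.1, 13.8 and 15.6 CPM, -1.09, adjusted p = 0.0705) had narrow spreads in both groups. *Wdfy1* rests on cKO 2 (21.5, 5.47 and 21.9 against 38.1, 24.1 and 42.9 CPM), which was lower than control 3 by 2.95 on the log2 scale, against a difference of -0.48 in the first set. The remaining 4 were *Mrln* (-1.23), *Dgkg* (-1.05), *Corin* (-1.05) and *Cep76* (-1.03), of which *Dgkg*, *Corin* and *Cep76* differed by -0.11, -0.01 and -0.24 between cKO 2 and control 3.

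Effects in the cerebellum were set against those of *Hbs1l* loss in E8.5 embryos and MEFs by the interaction of tissue and genotype over 12 libraries each. The tissues were sequenced in different batches, each with its own controls, and embryos lacked *Hbs1l* in every cell while MEFs were deleted in culture, so tissue, batch and extent of deletion cannot be told apart. Between cerebellum and embryo 107 of 14624 genes differed (0.732%), 68 with the higher effect in cerebellum (0.465%) and 39 with the lower (0.267%). In 83 of the 107 the effects had opposite signs. Genes too low for an estimate of their own in either tissue, such as *Gabarapl2* in embryos, could not enter these 83. Small effects did enter them, such as *Cdk1* at -0.07 in embryos. Between cerebellum and MEFs 703 of 14446 genes differed (4.87%), 450 higher (3.12%) and 253 lower (1.75%) in cerebellum. Leaving out 1 cerebellum library gave 24 to 257 genes against embryos and 354 to 2046 against MEFs.

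The *Hbs1l* decrease was smaller in cerebellum than in embryos by 2.11 and than in MEFs by 2.68 on the log2 scale (adjusted p = 0.0252 and 0.000135). *Sox11*, which rose by 1.37 in cerebellum, had a log2 fold change of -0.38 in embryos (adjusted p = 0.342) and fell by 0.82 in MEFs (adjusted p = 9.02e-05). *Sfrp1* likewise was at -0.25 in embryos (adjusted p = 0.608) and fell by 0.46 in MEFs (adjusted p = 0.00164). The effects in cerebellum exceeded those in embryos and MEFs by 1.75 and 2.23 for *Sox11* and by 1.71 and 1.97 for *Sfrp1*, with interaction p values, adjusted, of 0.0123, 0.00013, 0.0264 and 0.00013. These genes were chosen for their values in cerebellum, which enter the interaction too and favour a difference, so that their interaction values are a description and no independent evidence. *Insm1* and *Chrna3* did not pass in either comparison and were too low for a test of their own in embryos and MEFs, and *Rcor2* did not pass against MEFs (adjusted p = 0.0754).

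Cell cycle genes had a median log2 fold change of -0.06 in embryos and 0.58 in MEFs beside 1.12 in cerebella. All 31 were tested in each, and at an unadjusted p under 0.05, 27 were higher and 1 lower in MEFs and 2 were higher and 5 lower in embryos. Of all tested genes, 22.1% were higher and 21.7% lower in MEFs and 9.37% higher and 9.21% lower in embryos at that p. The effect in cerebellum was higher by the interaction for 8 of the 31 against embryos and 4 of the 31 against MEFs, and lower for none (edgeR, adjusted p), beside 0.465% and 3.12% of all genes tested for it. The share of histone footprints was 3.40% ± 0.46 in *Hbs1l* -/- and 4.30% ± 0.25 in wild-type embryos and 0.84% ± 0.06 in *Hbs1l* -/- and 0.51% ± 0.07 in control MEFs (SD, n = 3, exact permutation test, two-sided p = 0.1 in each). Interferon-stimulated genes stood apart the other way, against MEFs only. Their median was -0.22 in cerebella, with 1 of 15 tested lower at an unadjusted p under 0.05, near the 6.28% of all tested genes. In MEFs it was 2.75, where 15 of 15 were higher at that p (22.1% of all tested genes). Of 16, 14 passed the interaction with MEFs with the lower effect in cerebellum, beside 1.75% of all genes. In embryos the median was 0.60, with 2 of 4 tested higher at that p (9.37% of all tested genes). Against embryos 0 of 13 passed the interaction, beside 0.732% of all genes. Ribosomal protein genes had medians of 0.29 in cerebella and -0.56 in embryos, where 38 of 80 were lower at an unadjusted p under 0.05 (9.21% of all tested genes), and 1 of 81 passed the interaction, near the 0.732% of all genes. For p53 target genes the medians were -0.01 in cerebella and -0.45 in MEFs, where 10 of 13 were lower at that p (21.7% of all tested genes), and 4 of 13 passed the interaction with the higher effect in cerebellum, beside 3.12% of all genes. Against embryos 0 of 13 p53 target genes passed, beside 0.732% of all genes.

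**Figure D5:**
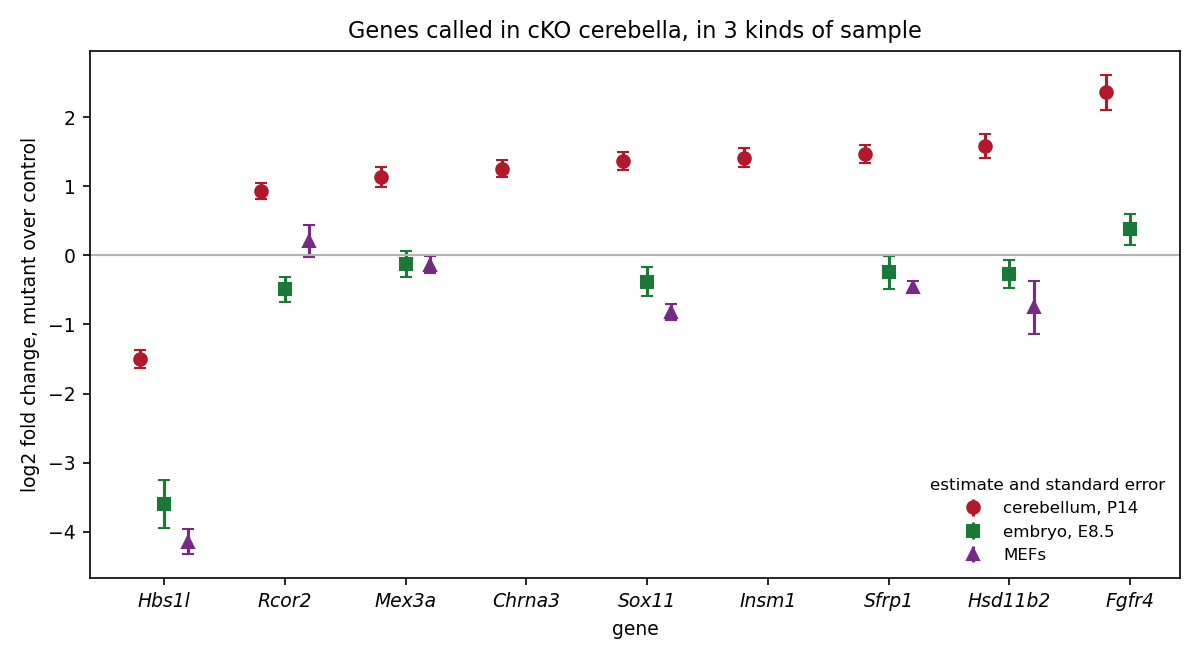
Log2 fold change and standard error of the 9 genes called in cKO cerebella, in cerebella, embryos and MEFs, each from its own fit (genes too low in a tissue have no point). *Hbs1l* is lowest in MEFs, and the genes that rose in cerebella lie between -0.82 and 0.38 in the other samples.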

How the data were processed

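Footprints were sequenced from 6 cerebella, each of 1 mouse. The authors clipped adapters, removed ribosomal RNA, snoRNA and tRNA reads with Bowtie2 2.2.3, aligned the rest to mm10 with HISAT2 2.1.0 and deposited raw counts per gene over coding sequence from featureCounts, without normalization or molecular identifiers. Samples were grouped by their labels. The 100 genes with histone symbols were left out, as in the study, and 14430 genes that passed filterByExpr of edgeR 4.0.16 (R 4.3.3) were fitted on the 6 libraries by its quasi-likelihood test after TMM scaling, with p values adjusted over all of them (Benjamini-Hochberg, threshold 0.05), while DESeq2 1.42.0 and limma 3.58.1 served as alternatives. Totals of 10919139 to 22591768 footprints limit precision through counting error, and p values measure the spread between 3 mice per group. Named genes were *Hbs1l* and rescue factors, genes past the threshold, the 12 largest changes in each direction and, of each list, members with the lowest p or highest CPM, and other genes were named after their values were seen. Members and lists were chosen with earlier results of these data known, and lists of brainstem, midbrain, muscle and granulocyte genes and 4 fits after seeing these libraries.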

Additional observations from a re-analysis of the deposited data

Results flagged for a closer look

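The effect of *Hbs1l* loss differed between tissues by the interaction term. Between cerebellum and embryo 107 genes differed, among them *Hbs1l* (2.11, cerebellum minus embryo on the log2 scale), *Fgfr4* (1.97), *Hsd11b2* (1.84), *Sox11* (1.75), *Sfrp1* (1.71), *Rcor2* (1.42) and *Mex3a* (1.25). Between cerebellum and MEFs 703 genes differed, among them *Fgfr4* (2.92), *Hbs1l* (2.68), *Hsd11b2* (2.36), *Sox11* (2.23), *Sfrp1* (1.97) and *Mex3a* (1.31). For *Hbs1l* the positive difference stands for a smaller decrease in cerebellum, and for the other genes named here for a higher effect in cerebellum. The genes named were chosen for their values in cerebellum, which favours a difference, so these values are a description. Without 1 cerebellum library the 107 became 24 to 257 and the 703 became 354 to 2046.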

How the results depend on the processing

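With 3 mice per group the number of called genes depended on the fit more than the direction of the named genes did. Against 9 genes by edgeR, DESeq2 called 482, limma voom with sample weights 2024, no filter 16, libraries thinned to the smallest 5 and the fit with histones 67, while RLE factors gave 9. Leaving out 1 library gave 0 to 560 genes (560 without control 3, 88 without cKO 2, 0 in the other 4 fits, with 1129 to 1328 genes at an unadjusted p under 0.05). Of fits chosen after seeing the data, leaving out cKO 1 and cKO 3 gave 0 (508 genes at an unadjusted p under 0.05, with cKO 2 assumed to vary like the controls), leaving out cKO 2 and control 1 gave 22, the midbrain split as a block 66 and the Y-linked split as a block 6. Correlations of same-numbered deviations from the group means were 0.22, -0.24 and 0.04. With 3 libraries per group these cannot show whether the numbers pair the mice, which the sources used here do not give. With the replicate number as a block 0 genes passed (2090 at an unadjusted p under 0.05), and *Hbs1l* was at -1.50 (adjusted p = 0.0567). *Hbs1l* ranged from -1.56 to -1.42 without 1 library (adjusted p up to 0.129) and was at -1.38 without cKO 1 and cKO 3 (adjusted p = 0.975). Signs turned for *Ptch1* (from -0.034 without cKO 2 and -0.003 without control 2 to 0.32 without control 3, and -0.086 without cKO 2 and control 1), *Pcna* and *Slc1a3* (-0.18 and 0.053 without cKO 1 and cKO 3) and *Pelo* (-0.078 by voom, -0.047 thinned, -0.12 without control 3, -0.036 without cKO 1 and cKO 3). The causes were not tested.

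List medians moved by more than the spread between libraries as follows. Without cKO 1 and cKO 3 they were 0.69 for cell cycle, 0.40 for granule progenitor, -0.035 for mature granule neuron, 0.0020 for oligodendrocyte progenitor, -0.013 for Ski and exosome and 0.081 for decay factor genes. Without cKO 2 and control 1 they were 0.25 for progenitor, 0.080 for stress response and -0.079 for heat shock genes. By voom they were 0.86 for progenitor, -0.14 for rescue, -0.16 for Ski and exosome, 0.094 for stress response, -0.59 for immediate early and -0.022 for receptor genes. Without 1 library the ranges were 0.33 to 0.90 (progenitor), -0.12 to -0.036 (rescue), 0.073 to 0.11 (stress response), -0.57 to -0.34 (immediate early), -0.21 to -0.16 (synapse) and -0.18 to -0.029 (receptors). The interaction with embryos gave 587 genes by DESeq2 and 24 to 257 without 1 cerebellum, and that with MEFs 1102 and 354 to 2046.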

Other observations

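Of 8 genes beside *Hbs1l* on chromosome 10, 7 were tested. At an unadjusted p under 0.05, 2 were higher and 1 lower, beside 7.14% and 6.28% of all tested genes. *Map7*, a microtubule-associated protein, was at 21.1, 23.6 and 20.05 CPM in cKO and 35.4, 33.1 and 24.4 CPM in control cerebella (log2 fold change -0.52, adjusted p = 0.224 by edgeR), and *Myb*, a transcription factor of dividing blood progenitors, at 4.76, 2.37 and 3.98 against 3.00, 1.56 and 1.09 CPM (1.04, adjusted p = 0.322). Within the first and the second set *Map7* differed by -0.73 and -0.05. The median of the 7 was 0.14. Cholesterol synthesis genes, which myelinating cells use, had a median of 0.09 over 17. At an unadjusted p under 0.05, 0 were higher and 0 lower, beside 7.14% and 6.28% of all tested genes. By DESeq2 0 passed, beside 1.97% called higher and 1.4% lower, and a list this short can hold 0 at those shares. Meningeal fibroblast genes had a median of -0.02 over 13, and the 13 proteins encoded by mitochondrial DNA one of 0.36, their share of footprints being 0.99%, 2.1% and 2.34% in cKO and 1.03%, 0.93% and 2.01% in control libraries.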
